A study of Mus musculus with 11 samples.

Results

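Malat1, Neat1, Miat and Rmst are 4 long noncoding RNA (lncRNA) genes known from nervous tissue, and their chromatin was compared between dopaminergic (DA) and serotonergic (5-HT) neurons of the mouse embryo. The genes were taken by name, with every ATAC-seq peak position that overlapped an annotated gene body on the mm9 genome or the 20 kb on either side of it. This gave 4 of 3845 annotated lncRNA genes, among 37273 annotated genes in all, and 41 of 131942 peak positions. RNA levels were not analysed here, so the abundance of these transcripts was not measured.

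Malat1 RNA gathers in nuclear speckles, which store splicing factors, and Neat1 RNA is the scaffold of paraspeckles, nuclear bodies that hold RNA-binding proteins. Miat, also called Gomafu, is a nuclear RNA of neurons that binds splicing factors. Rmst RNA binds the transcription factor Sox2, is known from the floor of the developing midbrain, and lies in a locus that also holds microRNA genes.

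ATAC-seq uses a transposase that inserts sequencing adapters into accessible DNA, and here it was compared between 2 monoaminergic cell types at embryonic day 14.5, in a study of DA neurons that used 5-HT neurons to judge what is specific to them. DA neurons were sorted as GFP-positive cells from the ventral mesencephalon of TH-GFP embryos, a line kept on C57BL/6J in which the Th promoter drives GFP, and gave 3 libraries. 5-HT neurons were sorted as YFP-positive cells from rhombomeres 1 to 3 of Mash1-CRE x ROSA YFP embryos and gave 2 libraries from fewer sorted cells. Swiss wild-type dams carried the embryos of transgenic sires in both cases, and each library came from its own sort of pooled tissue. In the second line YFP depends on CRE from Mash1, a proneural factor that progenitors of other neurons also express, and line, brain region and cell type cannot be told apart in this design.

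A position counted as a peak of a library when its deposited score was above 0. The DA libraries had 52861, 93055 and 94351 peaks, and the 5-HT libraries had 38772 and 22879, and this order of replicates 1, 2 and 3, then 1 and 2, is kept for all values. Every DA library thus had more peaks than either 5-HT library. Since read depth is unknown, yield was measured by the peaks alone. No source used here names the scale of the score, and its median ranged from 3.69 in 5-HT replicate 2 to 5.12 in DA replicate 1. Scores were therefore compared between libraries as percentiles among the 16856 positions with a peak in all 5 libraries. A second scale, percentiles among all peaks of each library, placed all DA libraries above both 5-HT libraries at 51.2% of these 16856 positions and both 5-HT libraries above all DA libraries at 1.58%, against 17.7% and 17.0% on the first scale. The mean was higher in DA neurons at 91.3% of these positions on the second scale and at 50.6% on the first.

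The sorted cell types were checked at the promoters of marker genes, from 1 kb upstream to 100 bp downstream of any annotated transcription start site (TSS). Of 8 DA markers, 8 had a promoter peak in each DA library and 5 in each 5-HT library. Th, the rate-limiting enzyme of dopamine synthesis, and the midbrain floor plate factor Lmx1a had theirs in DA neurons only, in each of the 3 libraries. Th scored 9.91, 10.6 and 8.45. When each library was reduced to its 22879 peaks of highest score, as many as 5-HT replicate 2 has in all, 6, 6 and 5 of the 8 were left in DA neurons, against 4 and 5 in 5-HT neurons, and Lmx1a had no peak.

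The 5-HT identity was less visible at promoters. Of 6 5-HT markers, 4, 5 and 4 had a promoter peak in DA neurons, against 5 and 2 in 5-HT neurons. Tph2, which makes serotonin, and Gata3 had a peak in all 5 libraries, and none of the 6 had one in both 5-HT libraries alone. Fev, a defining factor of 5-HT neurons, had a peak in 5-HT replicate 1 only, with a score of 3.37. Slc6a4, the serotonin transporter, had one in the DA libraries only. At 22879 peaks each, 3, 2 and 2 of the 6 were left in DA neurons, against 4 and 2 in 5-HT neurons.

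Markers of other cells were present in both groups. Of 3 GABA markers, 3 had a peak in each DA library and 2 in each 5-HT library, and the percentiles of Gad1 and Gad2 were higher in both 5-HT libraries than in any DA library, though with percentiles among all peaks of each library the mean difference turned to 10.05 and 6.20 in favour of DA neurons. Of 2 glutamate markers, 1 had a peak in every library but 5-HT replicate 2, which had none. Glial markers numbered 2, 4 and 4 of 5 in DA neurons, against 3 and 2 in 5-HT neurons. Vessel and microglia markers numbered 1, 2 and 2 of 5 in DA neurons, against 1 and 0 in 5-HT neurons, with no promoter peak of Pecam1, Aif1 or Cx3cr1 in any.

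These counts moved with the number of peaks. At 22879 peaks each, GABA markers numbered 0, 0 and 0 in DA neurons, against 2 and 2 in 5-HT neurons, the reverse of the order with all peaks. Glial markers then numbered 2, 1 and 2, against 3 and 2, and vessel and microglia markers 0, 0 and 0, against 1 and 0, while glutamate markers numbered 1, 1 and 1, against 0 and 0. The part of other cells in the results on the 4 lncRNA genes was not tested, and in sorted bulk tissue fewer open cells and a less open locus in each cell cannot be told apart.

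All 4 lncRNA genes carried a promoter peak in every library, in DA and 5-HT neurons alike. Of all 3845 annotated lncRNA genes, 24.6% had such a promoter, against 48.3% of 22367 protein-coding genes. Malat1, Neat1, Miat and Rmst each lack a protein-coding TSS within 1 kb of their own, and among the 2719 lncRNA genes of this kind the share was 10.1%. At 22879 peaks each, the promoters of Malat1 and Rmst still had a peak in all 5 libraries. The Neat1 promoter was then without a peak in DA replicate 1, and the Miat promoter kept a peak in 5-HT replicate 2 alone.

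The 41 positions around the genes were divided by the libraries that held them. A peak in all 5 libraries was found at 6 positions (14.6%), against 12.8% of all 131942 positions. A peak in every DA library and no 5-HT library was likewise found at 6 positions (14.6%), against 13.4%. No position had a peak in both 5-HT libraries and no DA library, a class that held 0.389% of all positions. In all, 29 positions (70.7%) had no peak in a 5-HT library, against 67.5%. These shares lay near the genome-wide ones.

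Of the 29, 16 positions (39.0% of the 41) had a peak in DA replicate 2 alone, against 17.4% of all positions, and 10 of these 16 were in introns of Rmst. Per 10000 peaks of a library, 2.84, 4.19 and 2.54 lay around the 4 genes in DA neurons, against 2.58 and 3.50 in 5-HT neurons. DA replicate 2 was the highest, and the groups overlapped, with means of 3.19 ± 0.879 (SD, n = 3) in DA and 3.04 ± 0.649 (SD, n = 2) in 5-HT neurons. The difference of 0.153 was smaller than either SD, and it was 0.510 among the 22879 highest-scoring peaks of each library, -1.0 among the 10000 highest and -0.679 with 50 kb on either side.

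Since the DA libraries held more peaks, the counts were repeated with 22879 peaks in each. Around the genes, 15 positions then kept a peak, of 40691 in the genome. All 5 libraries shared 3 of the 15, against 27.0% of the 40691, namely the Malat1 promoter, the Rmst promoter and a site between Malat1 and Neat1. The 3 DA libraries alone shared 2, against 6.94%, namely a further site between the same genes and one at the promoter of Gm9783 beside Neat1. The 5-HT libraries alone shared 1, against 5.79%, at the 3′ end of Miat. Without DA replicate 1, and with all peaks, the number of DA-only positions went from 6 to 12. DA-only then asked for a peak only in DA replicates 2 and 3, which had the most peaks. Without 5-HT replicate 1 the number of 5-HT-only positions went from 0 to 1, with a peak asked for only in 5-HT replicate 2. The shares over all positions in these settings were not computed.

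**Figure D1:**
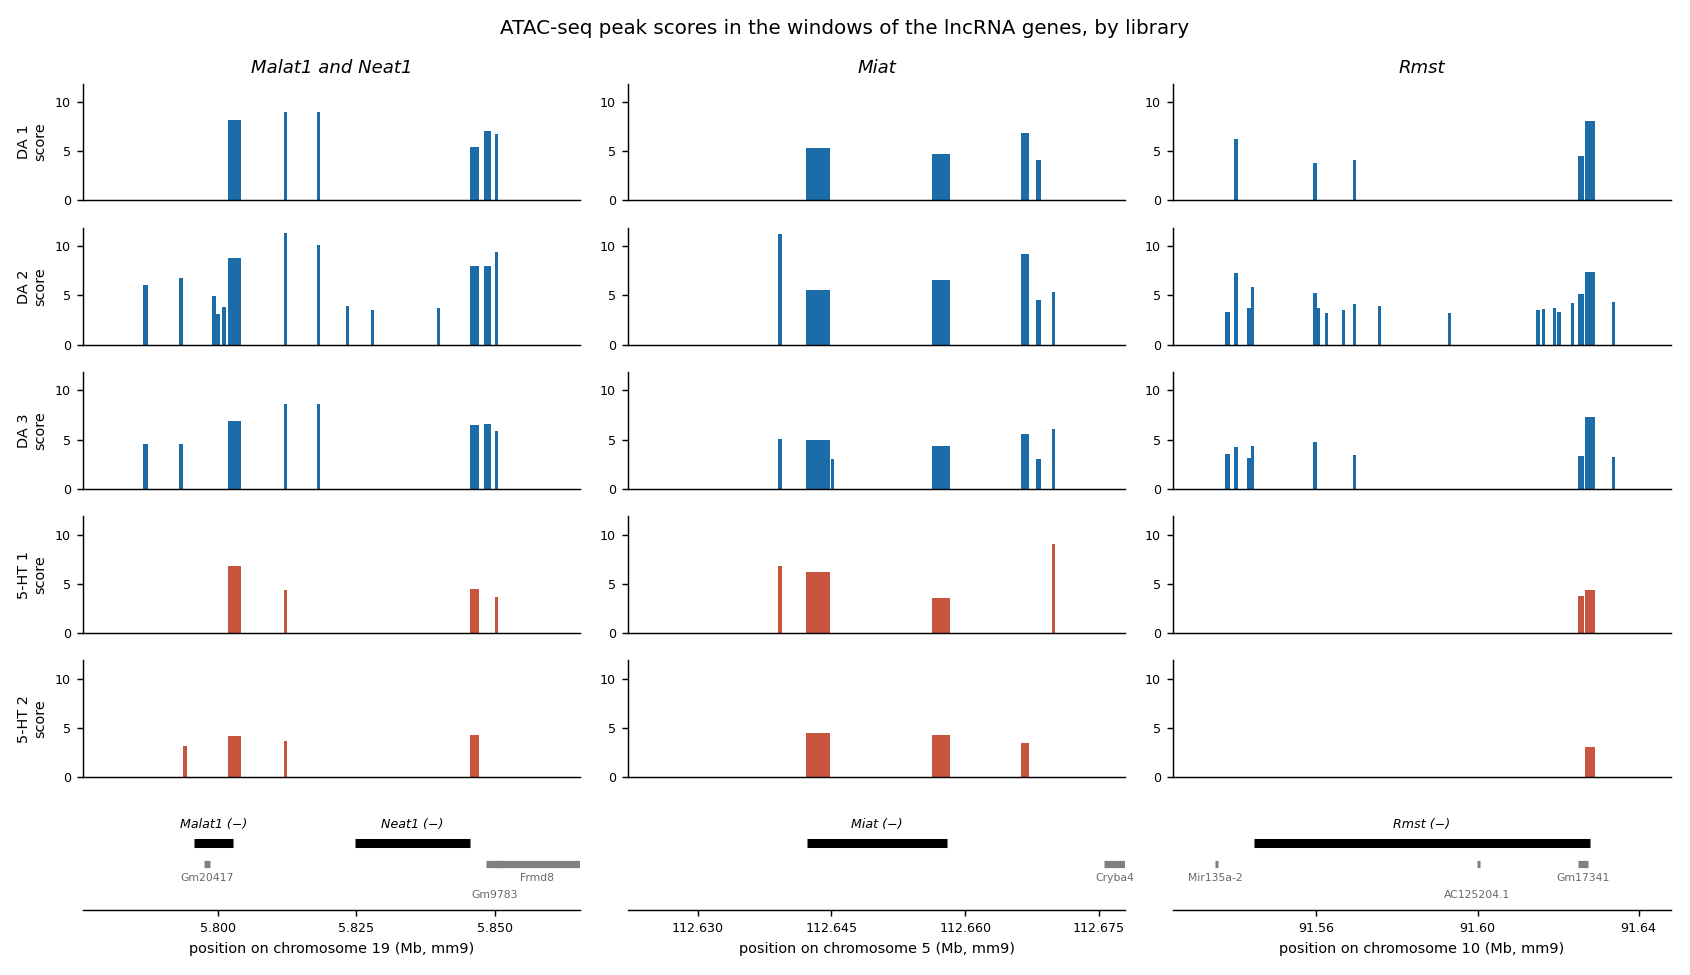
Score of each peak (vertical axis, scale not named by its source) along the windows of Malat1 and Neat1, Miat, and Rmst (horizontal axis, Mb on mm9) in the 3 DA libraries (blue) and the 2 5-HT libraries (red), with the 4 lncRNA genes in black, other genes in grey, and narrow peaks drawn at a minimum width. The promoters at the right end of the 4 genes have a bar in every library, and the introns of Rmst have bars in the DA libraries only, 10 of them in DA replicate 2 alone.

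Malat1 lies at chr19:5795690-5802671 on the minus strand and spans 6982 bp, with 5 annotated transcripts from 4 TSSs. Its window held 9 positions, 4 of them over the gene body. The promoter peak at chr19:5801897-5804086 scored 8.19, 8.85 and 6.90 in DA neurons, against 6.76 and 4.20 in 5-HT neurons. As percentiles among shared peaks these were 57.5, 45.7 and 35.9 in DA neurons and 70.4 and 56.6 in 5-HT neurons. DA replicate 1 lay just above 5-HT replicate 2, so the groups overlapped.

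The mean percentile of the Malat1 promoter was 46.4 ± 10.8 (SD, n = 3) in DA and 63.5 ± 9.77 (SD, n = 2) in 5-HT neurons, a difference of -17.1 (two-sided exact permutation test, p = 0.3). With percentiles among all peaks of each library, the direction turned to a difference of 8.17 in favour of DA neurons (two-sided exact permutation test, p = 0.4). The other 3 positions over the Malat1 body, in its exons, had a peak in DA replicate 2 alone. Downstream of the gene, chr19:5793847-5794204 had a peak in 5-HT replicate 2 alone, with a score of 3.14. Gm20417, a lncRNA gene on the opposite strand inside Malat1, had no promoter peak.

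Neat1 lies upstream of Malat1 on the same strand, at chr19:5824708-5845478, and spans 20771 bp with 4 annotated transcripts from 4 TSSs. Its window held 8 positions, 2 of which were shared with the window of Malat1. The promoter peak at chr19:5845624-5847169 did not reach the TSS base and began 146 bp upstream of it. It scored 5.45, 8.0 and 6.48 in DA neurons, against 4.51 and 4.31 in 5-HT neurons. Its percentiles were 21.5, 37.3 and 30.8 in DA neurons and 21.5 and 59.7 in 5-HT neurons.

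The 5-HT libraries thus fell on both sides of the DA libraries at Neat1. The means were 29.9 ± 7.91 (SD, n = 3) in DA and 40.6 ± 27.0 (SD, n = 2) in 5-HT neurons, a difference of -10.7 (two-sided exact permutation test, p = 0.7). The direction rested on 5-HT replicate 2, without which the difference was 6.88, and it also turned, to 12.9, with percentiles among all peaks (two-sided exact permutation test, p = 0.4). The body of Neat1 held 2 positions, both in an exon and both with a peak in DA replicate 2 alone.

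Between Malat1 and Neat1, 2 intergenic positions had strong peaks in DA neurons. The position chr19:5811860-5812447, 9189 bp from the Malat1 TSS, scored 8.99, 11.3 and 8.60 in DA neurons, against 4.38 and 3.72 in 5-HT neurons. Its percentiles were 65.7, 66.9 and 55.7 in DA neurons and 18.3 and 40.5 in 5-HT neurons. All 3 DA libraries lay above both 5-HT libraries, with means of 62.7 and 29.4 and a difference of 33.3, and the same held with percentiles among all peaks of each library, with a difference of 40.6.

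The second intergenic position, chr19:5817890-5818384, is 495 bp wide and lies 15219 bp from the Malat1 TSS and 27094 bp from that of Neat1. It had no peak in either 5-HT library and scored 9.04, 10.2 and 8.60, at percentiles 87.0, 90.6 and 89.8 among all peaks of these libraries. In each DA library it ranked above the other DA-only positions around the 4 genes, and at 22879 peaks each it was still DA-only.

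On the other side of Neat1, a DA-only peak at chr19:5848009-5849245, 2531 bp from the Neat1 TSS, covered the promoter of the divergent lncRNA gene Gm9783. It scored 7.08, 7.95 and 6.63 and was likewise still DA-only at 22879 peaks each. A peak at chr19:5850051-5850638 in an exon of Frmd8, the next protein-coding gene, scored 6.77, 9.37 and 5.92 in DA neurons and 3.69 in 5-HT replicate 1, and was missing in 5-HT replicate 2. The annotated TSSs of Frmd8 inside the window had no promoter peak.

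Miat lies at chr5:112642248-112657968 on the minus strand and spans 15721 bp, with 1 annotated transcript. Its window held 7 positions, and none of them had a peak in DA replicate 2 alone. The promoter peak at chr5:112656301-112658320 scored 4.75, 6.61 and 4.32 in DA neurons, against 3.57 and 4.25 in 5-HT neurons. Its percentiles were 12.4, 23.3 and 6.71 in DA neurons and 2.52 and 58.2 in 5-HT neurons. The lowest and the highest of the 5 values thus both came from 5-HT neurons.

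The means for the Miat promoter were 14.1 ± 8.43 (SD, n = 3) in DA and 30.4 ± 39.4 (SD, n = 2) in 5-HT neurons, a difference of -16.2 (two-sided exact permutation test, p = 0.7). Without 5-HT replicate 2 the difference was 16.2 in the opposite direction, and with percentiles among all peaks it was 16.0 (two-sided exact permutation test, p = 0.6).

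The 3′ end of Miat carried a second peak in all 5 libraries. The peak at chr5:112642114-112644809, 2696 bp wide and centred in an exon 13159 bp from the TSS, scored 5.38, 5.55 and 5.00 in DA neurons, against 6.22 and 4.52 in 5-HT neurons. Its percentiles were 20.6, 13.6 and 13.4 in DA neurons and 61.3 and 65.0 in 5-HT neurons. Both 5-HT libraries lay above every DA library, with means of 63.1 and 15.9 and a difference of -47.3 for DA minus 5-HT neurons. They also did so with percentiles among all peaks, where the difference was -14.4. At 22879 peaks each, this position had a peak in the 5-HT libraries only.

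Upstream of Miat, the positions were held by different sets of libraries. A peak at chr5:112666279-112667131, 8311 bp from the TSS, scored 6.87, 9.21 and 5.58 in DA neurons and 3.47 in 5-HT replicate 2, and was missing in 5-HT replicate 1. The DA-only peak at chr5:112667980-112668457 scored 4.15, 4.56 and 3.03, the last of these being the lowest score of any peak in DA replicate 3. A peak at chr5:112669732-112670090 was found in DA replicates 2 and 3 and 5-HT replicate 1, and was highest in 5-HT replicate 1, at 9.03.

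Rmst lies at chr10:91544491-91627923 on the minus strand and is the longest of the 4 genes at 83433 bp, with 2 annotated transcripts from 2 TSSs. Its window held 19 positions, 14 of them over the gene body. The DA libraries had a peak at 5, 19 and 9 of the 19, and the 5-HT libraries at 2 and 1. Thus 17 of its 19 positions had no 5-HT peak, against 67.5% of all positions, and 10 of the 17 had a peak in DA replicate 2 alone. At 22879 peaks each, 2 of the 19 positions kept a peak and 0 were DA-only.

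The Rmst promoter peak at chr10:91626659-91629073 scored 8.09, 7.35 and 7.31 in DA neurons, against 4.39 and 3.07 in 5-HT neurons. Its percentiles were 56.4, 30.9 and 40.8 in DA neurons and 18.5 and 10.4 in 5-HT neurons. All 3 DA libraries lay above both 5-HT libraries, also with percentiles among all peaks.

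The means for the Rmst promoter were 42.7 ± 12.9 (SD, n = 3) in DA and 14.4 ± 5.69 (SD, n = 2) in 5-HT neurons, a difference of 28.3 (two-sided exact permutation test, p = 0.2). With percentiles among all peaks the difference was 50.01 (two-sided exact permutation test, p = 0.1). Rmst was the only one of the 4 promoters at which the percentiles of the groups did not overlap. Of all shared positions, 17.7% were higher in every DA library and 17.0% in both 5-HT libraries. With percentiles among all peaks these shares were 51.2% and 1.58%. With 3 against 2 libraries the smallest p that this test can give is 0.1, so no test of these promoters could reach the usual threshold, and a p above it does not show that the groups were equal.

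Inside and downstream of Rmst, 3 positions were DA-only. In its introns, chr10:91559153-91560195 scored 3.78, 5.25 and 4.78, and chr10:91569175-91569548 scored 4.07, 4.11 and 3.39. Downstream of the gene, chr10:91539577-91540393 scored 6.22, 7.29 and 4.23, at percentiles 65.7, 79.2 and 54.7 among all peaks of these libraries. The downstream position ranked higher than the first intronic one in DA replicates 1 and 2 and lower in DA replicate 3, and at 22879 peaks each it had a peak in DA replicates 1 and 2 only.

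The peak downstream of Rmst is 817 bp wide and lies 4647 bp from the hairpin of Mir135a-2 at chr10:91534831-91534930, a microRNA gene on the strand of Rmst. The mature 5p strand of miR-135a is given because this microRNA gene shares the locus, and it was read from the RefSeq table for GRCm38.p6, with the seed, bases 2 to 8, in capitals.
mmu-miR-135a-5p: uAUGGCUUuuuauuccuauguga
The stretch from 1 kb upstream to 100 bp downstream of the annotated start of Mir135a-2 had no peak. Nor did that of AC125204.1, a microRNA gene inside Rmst at chr10:91599885-91599968. Both annotated genes span only a hairpin, so the start of the transcript that holds it was not examined. Near the Rmst promoter, a peak over the promoter of Gm17341, a lncRNA gene on the opposite strand, scored 4.57, 5.16 and 3.35 in DA neurons and 3.80 in 5-HT replicate 1, and was missing in 5-HT replicate 2.

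Every one of the 4 windows held at least 1 DA-only position, against 37.9% of the windows of all lncRNA genes drawn in the same way, and the position of Malat1 was also one of those of Neat1. The windows were not matched for length, and that of Rmst spanned 123 kb, against 47.0 to 60.8 kb for the other genes. At 22879 peaks each, the windows of Miat and Rmst held 0 DA-only positions. The share of all lncRNA windows at that number was not computed. Of the 6 positions with a peak in all 5 libraries, 2 had higher percentiles in every DA library, the Rmst promoter and the site between Malat1 and Neat1, against 17.7% of the 16856 shared positions. Higher percentiles in both 5-HT libraries were found at 1 of the 6, the 3′ end of Miat, against 17.0%. With percentiles among all peaks these counts were again 2 and 1, against 51.2% and 1.58%. Over the positions shared by the remaining 4 libraries, 4 of 8 lay higher in DA neurons without 5-HT replicate 2. Those higher in 5-HT neurons numbered 2 of 6 without DA replicate 1 and 2 of 8 without 5-HT replicate 2. Without 5-HT replicate 1 they numbered 3 of 7. The shares over all positions in these settings were not computed, and groups of fewer libraries are more easily apart.

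**Figure D2:**
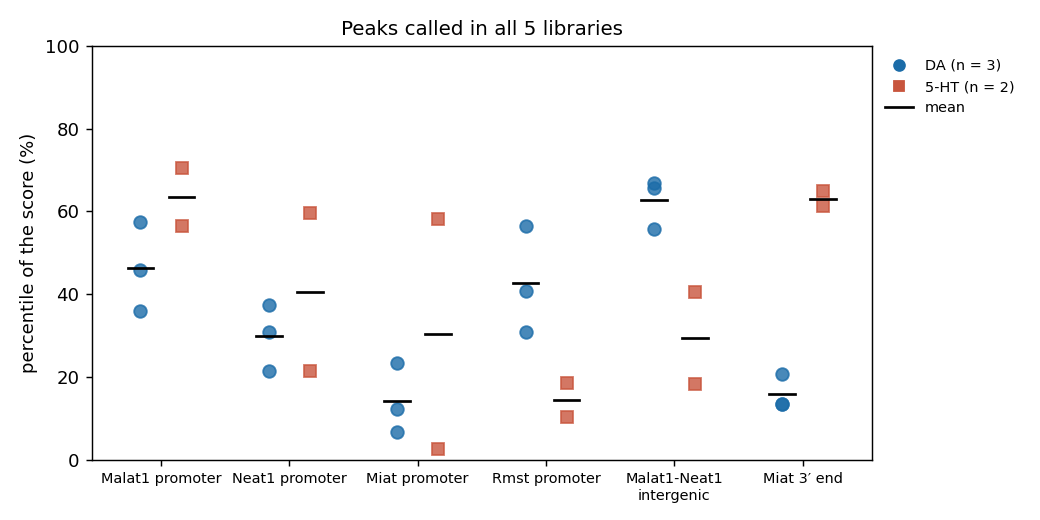
Percentile of the score among the 16856 positions with a peak in all 5 libraries (vertical axis, %) at the 6 such positions around Malat1, Neat1, Miat and Rmst, with a point for each of the 3 DA and 2 5-HT libraries and a line at each mean. The groups are apart at the Rmst promoter (means 42.7 and 14.4), between Malat1 and Neat1 (62.7 and 29.4) and at the 3′ end of Miat (15.9 and 63.1), and overlap at the other promoters, where the direction flips with percentiles among all peaks of a library.

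Within each cell type the order of the promoters was set against their spread. In DA neurons the mean percentile was highest at Malat1, followed by Rmst, Neat1 and Miat, and no neighbours in this order differed by more than the sum of their SDs. In 5-HT neurons the order was Malat1, Neat1, Miat and Rmst. The SDs of neighbours again overlapped, those of Neat1 and Miat being the widest. Compared within each library, Neat1 lay above Miat in all 5 libraries, and Malat1 above Neat1 in every DA library. Single libraries departed from the order of the means: Rmst came after Neat1 in DA replicate 2 and before Malat1 in DA replicate 3, while Miat was last in 5-HT replicate 1, and Neat1 and Miat both came before Malat1 in 5-HT replicate 2.

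For each gene, the lncRNA promoters with the nearest pattern were sought among 270 that had a peak in all 5 libraries and no protein-coding TSS within 1 kb, by the Euclidean distance of the percentiles over the 5 libraries. Gm15651 (15.8) and Gm17274 (18.3) were nearest to Malat1. Enox (9.18), a lincRNA gene of the X chromosome, and C130071C03Rik (20.7) were nearest to Neat1. Gm11266 (14.03) and Gm13589 (21.6) were nearest to Miat. Gm17717 (9.38) and A330076H08Rik (18.8) were nearest to Rmst, and Gm17717 had percentiles of 48.6, 32.3 and 35.9 in DA neurons and 18.5 and 10.3 in 5-HT neurons.

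The listed genes of proteins that work with Neat1, Malat1 or Miat RNA had open promoters in both cell types. Of 12 paraspeckle protein genes, the partners of Neat1, 12 had a promoter peak in all 5 libraries, and so did all 7 genes of nuclear speckle proteins and splicing factors, where Malat1 RNA is found, against 48.3% of protein-coding genes. Among the 12 paraspeckle genes, 2 (Nudt21 and Hnrnph3) had higher percentiles in every DA library and 2 (Pspc1 and Cpsf6) in both 5-HT libraries, near the shares of 17.7% and 17.0% over all shared positions. Pspc1, a core paraspeckle protein, was at 51.8, 60.3 and 67.0 in DA neurons and 77.7 and 92.1 in 5-HT neurons. Of the 7 speckle genes, 1 lay apart, Srsf3, higher in every DA library, at 58.6, 74.9 and 57.8 against 28.7 and 50.7.

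With percentiles among all peaks, 6 of the 12 paraspeckle genes were higher in every DA library, Sfpq, Nono, Rbm14, Hnrnpk, Nudt21 and Hnrnph3, and 0 in both 5-HT libraries, against 51.2% and 1.58% of shared positions. Of the 7 speckle genes, 4 were then higher in every DA library, Srsf2, Srsf3, Srrm2 and Prpf6. The paraspeckle counts for DA neurons thus lay near the genome-wide shares on both scales.

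The 3 genes of splicing factors that bind Miat RNA had a promoter peak in all 5 libraries, against 48.3% of protein-coding genes. Celf3 was higher in 5-HT neurons, at 89.8 and 89.5 against 68.1, 61.2 and 57.7 in DA neurons. Qk was higher in DA neurons, at 16.2, 31.6 and 14.7 against 9.05 and 8.82. Sf1 overlapped between the groups and was at 97.8, 96.0 and 70.2 in DA neurons, against 97.7 and 96.2 in 5-HT neurons. With percentiles among all peaks, the same held for all 3. Of all shared positions, 17.7% were higher in every DA library and 17.0% in both 5-HT libraries. With percentiles among all peaks these shares were 51.2% and 1.58%.

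Of 7 genes listed beside Rmst, 4 had a promoter peak in all 5 libraries, against 48.3% of protein-coding genes. The list joins partners of Rmst RNA and a gene on its chromosome with Lmx1a, Lmx1b, Foxa2 and Wnt1. These last lie on other chromosomes and are not given here as partners of its RNA. Sox2, whose protein binds Rmst RNA, was higher in 5-HT neurons, at 39.8 and 52.1 against 15.9, 20.2 and 4.68 in DA neurons, and overlapped with percentiles among all peaks. Foxa2, a floor plate factor, was higher in DA neurons, at 16.5, 24.7 and 21.9 against 9.04 and 15.5. Of all shared positions, 17.7% were higher in every DA library and 17.0% in both 5-HT libraries. Hnrnpa2b1 and Nedd1, a neighbour of Rmst on the same chromosome, overlapped between the groups. With percentiles among all peaks both were higher in every DA library, as were 51.2% of shared positions. Lmx1a was DA-only with scores of 5.00, 5.62 and 4.09, Lmx1b had a peak in every library but 5-HT replicate 2, and Wnt1 had no promoter peak.

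Other lncRNA genes were set beside these 4. Of 14 with an annotated promoter, 7 had a peak there in all 5 libraries, against 24.6% of all 3845 annotated lncRNA genes. These were Tug1, Sox2ot, Gas5, Snhg1, Pvt1, Gm2694 and 1700020I14Rik. Of the 7, 1 was higher in every DA library, Tug1, against 17.7% of shared positions, and 0 in both 5-HT libraries, against 17.0%. Tug1 was at 82.5, 77.4 and 72.9 in DA neurons and 41.9 and 36.3 in 5-HT neurons. With percentiles among all peaks, 5 of the 7 were higher in every DA library, Tug1, Snhg1, Pvt1, Gm2694 and 1700020I14Rik, against 51.2%. Meg3 and Snhg11 had a peak in every library but 5-HT replicate 2, and Rian, Mirg, Xist, H19 and Dlx6os1 had none.

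The promoter sequences of Malat1 and Miat are shown as examples of lncRNA promoters with a peak in all 5 libraries. They run from 250 bases upstream to 50 downstream of the outermost annotated TSS and were read from the mm9 genome on the minus strand, at chr19:5802622-5802921 for Malat1 and chr5:112657919-112658218 for Miat. Capitals mark matches on either strand to the TATA box word TATAAA, the CCAAT box, the GC box word CCGCCC, the cyclic AMP response word TGACGTCA, the AP-1 word TGANTCA and the E-box CANNTG. Also searched were the SOX words ACAAAG as well as ACAATG, the nuclear receptor word AAGGTCA, the NFI word TTGGCA and the NRF1 word TGCGCA.
Malat1: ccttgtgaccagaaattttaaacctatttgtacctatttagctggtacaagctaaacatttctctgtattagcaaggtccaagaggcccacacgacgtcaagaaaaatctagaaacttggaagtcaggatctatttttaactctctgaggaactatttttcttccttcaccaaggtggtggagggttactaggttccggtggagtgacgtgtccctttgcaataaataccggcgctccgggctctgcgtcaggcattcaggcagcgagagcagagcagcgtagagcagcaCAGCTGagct
Miat: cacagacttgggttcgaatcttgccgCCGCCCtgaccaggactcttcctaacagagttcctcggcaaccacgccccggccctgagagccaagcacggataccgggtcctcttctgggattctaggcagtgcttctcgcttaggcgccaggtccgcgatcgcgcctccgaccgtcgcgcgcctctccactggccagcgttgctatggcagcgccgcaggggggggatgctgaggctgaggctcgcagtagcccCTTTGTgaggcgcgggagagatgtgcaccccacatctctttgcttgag

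The GC content of the Miat promoter was 64.3% and its observed to expected ratio of CpG 0.807, above the medians of 55.0% and 0.468 over 75427 annotated promoters. The GC content of the Malat1 promoter was 47.0%, below the median, and its CpG ratio was 0.604, above it. Miat held CCGCCC (39.3% of promoters) and ACAAAG (17.7%), and Malat1 held CANNTG (70.7%). No other of the words occurred in these 2 windows.

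The central 200 bases of 2 DA-only peaks are shown, that of the DA-only peak between Malat1 and Neat1 and that of the one around Rmst with the highest score in its lowest library. They were read from the plus strand of mm9, at chr19:5818038-5818237 and chr10:91539886-91540085, with the same words in capitals.
peak between Malat1 and Neat1: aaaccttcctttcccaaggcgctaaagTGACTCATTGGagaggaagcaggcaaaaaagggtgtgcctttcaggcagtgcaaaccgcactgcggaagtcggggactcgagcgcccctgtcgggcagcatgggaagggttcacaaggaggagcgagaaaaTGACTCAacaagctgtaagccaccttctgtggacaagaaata
peak downstream of Rmst: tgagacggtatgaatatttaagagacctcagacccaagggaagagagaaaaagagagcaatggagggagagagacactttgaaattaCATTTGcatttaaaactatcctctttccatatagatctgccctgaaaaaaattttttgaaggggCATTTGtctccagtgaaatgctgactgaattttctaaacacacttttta
The peak between Malat1 and Neat1 held TGANTCA at 2 places, a word held by 6.14% of the centres of all peaks, and a CCAAT (24.0%) on the other strand that overlapped the first of them. The peak downstream of Rmst held CANNTG at 2 places (70.2%). Their GC contents were 53.5% and 36.5%, against a median of 49.0% over 131940 centres, among which the peak downstream of Rmst was at percentile 4.01. A match to a word describes the sequence and shows no binding.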

How the data were processed

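ATAC-seq was read from 3 DA and 2 5-HT libraries, each from a separate FACS experiment. Before deposit, the authors used Trimmomatic and FastQC on the reads, Bowtie2 for alignment (mm9), Picard against duplicates and MACS2 for peaks, and BEDOPS joined those within 100 bp of each other. Versions, the calling threshold and any shift of reads for the transposase are not given in the sources used here. The authors deposited a score per library at the same 131942 positions, 0 standing for no peak, on a scale that no source used here names. A misspelled chromosome name was corrected in 1 line.

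A position belonged to a gene when it overlapped, by at least 1 bp, the GENCODE gene body on mm9 or 20 kb on either side. Promoters ran from 1 kb upstream to 100 bp downstream of each TSS. The percentiles of the promoter peaks were compared by 4 two-sided exact permutation tests, which were repeated with percentiles among all peaks of a library. Differences at other positions were not tested. All peaks at promoters, in all 5 libraries, or specific to a group were named, and a gene's promoter peak was the one in most libraries. The 2 nearest lncRNA promoters were named for each gene. Members and lists were chosen with earlier results of these data known. Alternatives changed the window, the number of peaks, the overlap, the promoter, the percentile, the replicate block and the libraries included. Promoters of 1 listed lncRNA, Kcnq1ot1, were not analysed here because the annotation used does not hold this name. The promoter sequences of Neat1 and Rmst are not reported here.

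Computations used Python 3.11.15, NumPy 2.4.6, pandas 2.3.3 and matplotlib 3.10.9 and were tested on simulated data.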

Additional observations from a re-analysis of the deposited data

How the results depend on the processing

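Of 117 alternative values, 89 stayed within a set tolerance, 23 moved beyond it and 5 reversed. The 89 include the promoter differences by rank among all peaks, which say nothing about stability, as described below. They also include promoter differences with a wider promoter and with the TSS base alone, which picked the same peaks and gave identical values. The replicate block nearly repeats the run without DA replicate 3. The tolerance was 1.5 times for a count, the within-group SD of 0.809 for the difference per 10000 peaks, and the same sign for a promoter difference. Percentiles among all peaks of a library reversed the promoter differences (DA minus 5-HT) of Malat1 (8.17), Neat1 (12.9) and Miat (16.0). On that scale the mean was higher in DA neurons at 91.3% of all shared positions. By rank among all peaks the differences were -6123, -6474 and -11699 ranks, but ranks grow with the number of peaks, which was larger in DA neurons, and the mean favoured 5-HT neurons at 63.3% of shared positions, so the sign of these ranks says nothing about stability. That of Rmst was 50.01 with percentiles among all peaks and was reversed by no alternative. When each library was left out in turn, the differences ran from -21.4 to -10.0 for Malat1, from -29.6 to 6.88 for Neat1, from -44.6 to 16.2 for Miat and from 22.9 to 34.2 for Rmst. The reversals of Neat1 (6.88) and Miat (16.2) came without 5-HT replicate 2, which leaves 1 5-HT library and no test.

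Positions with a peak in all 5 libraries numbered 10 with 50 kb on either side, 3 with 22879 peaks in each library and 0 with 10000. DA-only positions numbered 2 in the gene bodies and 2 with 22879 or 10000 peaks. They numbered 6 to 12 when a library was left out, which loosens the class, and no share over all positions was computed there. 5-HT-only positions numbered 1 with 22879 or 10000 peaks and 0 to 1 when a library was left out. Promoters with a peak in all 5 libraries numbered 2 and 0 with 22879 and 10000 peaks. The difference per 10000 peaks was -0.679 with 50 kb, -1.0 with 10000 peaks, 0.510 with 22879 peaks, and -0.347 to 0.612 when a library was left out. It also changed sign, within that SD, without DA replicate 2 (-0.347), without 5-HT replicate 1 (-0.306) and in the gene bodies (-0.00685). Fewer peaks or shorter windows hold fewer positions by construction, and the cause of the other changes was not tested.

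For positions and listed genes whose groups did not overlap, the alternatives were chosen after seeing the data. DA neurons were higher at 1 position in the gene bodies, 1 with 5 kb, 0 with 10000 peaks and 2 to 4 when a library was left out. 5-HT neurons were higher at 2 with 50 kb, 0 with 10000 peaks and 1 to 3 when a library was left out. With fewer peaks or a library left out, the shares over all positions were not computed. The TSS base alone gave no percentile for Neat1, whose peak lies upstream of it.

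Replicate numbers are shared by the groups but only as numbers, since the deviations of libraries with the same number correlated at -0.0119 and 0.0214 over 16856 positions. The replicate block paired replicates 1 and 2 and so left out DA replicate 3. Its differences were -11.9 for Malat1, -11.2 for Neat1, -12.5 for Miat, 29.2 for Rmst and 0.476 per 10000 peaks. They nearly repeat those without DA replicate 3, which were -11.8, -11.1, -12.3, 29.3 and 0.476, and are no separate check. Unknown read depth, 2 libraries for 5-HT neurons and an unnamed score scale limit all comparisons, and absence of a peak in a library with few peaks does not show closed chromatin.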
